A study of Mus musculus with 10 samples.

Results

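The Rab genes expressed in islets were followed in FL and βFIT2KO (KO) islets. They were taken from the deposited table as the gene symbols made of Rab followed directly by a number and optional letters, with a mean of at least 1 FPKM (read fragments scaled to the length of the exons and to the size of the library) in FL or in KO. The table held 47340 genes, of which 72 had such a symbol, and 64 of these passed the level, among 13065 genes that did. The 64 members were 53 of 59 Rab GTPases, all 9 proteins that bind or regulate Rab GTPases under a Rab symbol (Rab11fip1, Rab3gap1, Rab3ip and others), and 2 of 4 antisense RNAs (Rab10os and Rab26os). The 8 genes below the level were Rab26, Rab30, Rab33a, Rab38, Rab42 and Rab44, and the antisense RNAs Rab11fip4os1 and Rab11fip4os2, which were listed at 0 in all libraries. By the mean over both groups, 7 members were over 100 FPKM, 37 between 10 and 100 FPKM and 13 under 5 FPKM. The median coefficient of variation of a member between libraries was 7.0% in FL and 9.04% in KO.

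FL mice carried floxed Fitm2 (FIT2 fl/fl) without Cre, although the genotype label of these samples reads wild type, and KO mice were their floxed littermates in which Fitm2, the gene of the ER protein FIT2 that takes part in lipid droplet formation, was deleted by Cre of the transgene B6.Cg-Tg(Ins2-cre)25Mgn/J, which a rat insulin promoter drives. All were 12 week old males, with 5 FL and 5 KO samples of isolated islets that recovered overnight in culture before polyA RNA was sequenced. Islets with Cre but without the floxed gene were not analysed here, so the presence of Cre and the loss of Fitm2 cannot be told apart. The numbers of reads behind the FPKM are unknown, and no counting error was computed.

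Rab proteins are small GTPases that mark the membranes of the secretory and endocytic pathways. Exchange factors load them with GTP, GTPase-activating proteins return them to the GDP form, and in the GTP form they recruit effectors that move, tether or dock vesicles. In β cells, Rab3 and Rab27 proteins sit on insulin granules and act in exocytosis. Most Rab proteins are held in the membrane by prenyl groups on cysteines at their carboxyl end.

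That end can be read from the coding sequences of the members. The last 8 codons and the stop codon are printed for the 8 members that were called in every alternative in which they were tested, because these carry the differences described here, with cysteine codons (TGC or TGT) in capitals. They were read 5′ to 3′ on the coding strand of GENCODE M21 transcripts (GRCm38).
Rab17: aggcagcgccagTGCTGTgcacgatag
Rab37: cgctccagcTGCTGCtcctttgtgtga
Rab19: aatgagagcacccgcTGTactTGTtga
Rab43: gcggagagctggggcTGTgggTGCtga
Rab2b: atagggcctgactctggcTGCTGCtga
Rab3d: ccacagccgagcagcTGCagcTGTtag
Rab13: aagaagaacaagTGCttgttaggctga
Rab3c: ccaccacagcccaacTGTggcTGCtaa

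Among 51 Rab GTPases whose coding end was read, 39 had at least 2 cysteine codons in the last 4 codons and the other 12 had 1, whereas 0 of 9 interacting proteins had any. In Rab37 the pair of cysteine codons lies further from the stop codon than in Rab2b, and Rab13 has a lone cysteine codon. All of the 8 are protein-coding genes: Rab17 at chr1:90958133-90969661, Rab37 at chr11:115091431-115162236, Rab19 at chr6:39381175-39390380, Rab43 at chr6:87788853-87812164, Rab2b at chr14:52261759-52279545, Rab3d at chr9:21907491-21918192, Rab13 at chr3:90213695-90226385 and Rab3c at chr13:110054187-110280996 (GRCm38, GENCODE M21).

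Fitm2 was at 16.9, 30.5, 16.5, 37.1 and 15.5 FPKM in FL replicates 1 to 5, against 4.56, 4.30, 7.75, 9.13 and 9.0 FPKM in KO replicates 1 to 5. The groups did not overlap, with a log2 fold change of −1.58 ± 0.28 (SE) on log2(FPKM + 1) and an adjusted p of 0.00228 from limma. Beta cell markers were lower in KO, with summed levels of 2958 to 3734 FPKM in FL against 1979 to 2776 FPKM in KO, and 7 of 9 tested fell. The defining beta and alpha cell genes Ins1, Ins2, Iapp and Gcg were listed at 0 in all libraries. Markers of stroma summed to 12.5 to 21.1 FPKM in FL against 25.0 to 34.7 FPKM in KO (5 of 5 tested rose). Markers of leukocytes summed to 129 to 177 and 187 to 211 FPKM (3 of 8 rose), and endothelial markers to 190 to 220 and 214 to 296 FPKM (5 of 8 rose). Alpha cell markers summed to 442 to 660 FPKM in FL and to 297 to 440 FPKM in KO. Acinar markers reached from 3790 to 9558 FPKM in FL against 2467 to 18149 FPKM in KO. Of them 0 of 8 were called by limma (0 at an unadjusted p under 0.05). Alpha, delta and duct markers were called lower in 2 of 7, 1 of 5 and 1 of 6 and higher in 1 of 6 duct markers. That higher duct marker, Cftr, passed the level of 1 FPKM only through KO, with means of 0.0372 FPKM in FL and 2.13 FPKM in KO. Some of these marker counts moved when a library was left out, to 3 stroma markers higher without KO replicate 1, 3 endothelial markers higher without FL replicate 5, 1 alpha marker lower without any 1 of FL replicates 1, 3, 4 and 5 or KO replicates 1, 2 and 4, and 0 delta markers lower without any 1 of FL replicates 1, 3, 4 and 5 or KO replicates 1 and 4. With other scalings 7 endothelial markers were higher, 1 alpha marker lower and 0 delta markers lower. The part of these cells in the differences of Rab genes was not tested, and in bulk islets fewer cells of a type and less RNA per cell cannot be told apart.

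Between KO and FL, 10 of the 64 members fell and 4 rose at an adjusted p of at most 0.05. The largest falls on the log2 scale were those of Rab37 and Rab17, of which Rab17 passed the level of 1 FPKM only through FL, and the largest rises those of Rab3c and Rab13. These 14 are 21.9% of the members, beside 25.5% of all tested genes called. The 10 lower members are 15.6%, beside 16.5% of all genes, and the 4 higher members are 6.25%, beside 9.05%. The median log2 fold change of the members was −0.08, beside −0.06 over all tested genes, and 46 of the 64 (71.9%) were below 0, beside 61.9% of all tested genes. The shares of Rab genes called were thus close to, or under, those of the whole table. At an unadjusted p under 0.05 there were 23 members (35.9%), beside 37.7% of all tested genes. FL and KO libraries did not overlap in 9 members (14.1%), beside 19.1% of all tested genes. After rescaling each library to the same sum (TPM), 5 members were lower and 4 higher, while over all tested genes the lower and higher calls went from 2150 and 1183 to 1536 and 1470. With the other scalings tried (median-ratio, quantile and TPM), 36 to 40 of the 64 members were below 0. Without KO replicate 4, or without KO replicate 5, 6 were lower. The calls lost in these 3 fits were among Rab23, Rab28, Rab12, Rab4a and Rab11fip3, whose log2 fold changes were −0.26, −0.20, −0.17, −0.21 and −0.17. Shares of all tested genes called with a library left out are not given here. Counts of members or of lists in such fits are therefore not to be set beside the shares of the main fit. Nearest to the threshold among members not called were Rab6a, Rab36 and Rab5c, with adjusted p of 0.0545, 0.0557 and 0.0572 from limma and log2 fold changes of −0.21, −0.18 and −0.18.

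**Figure D1:**
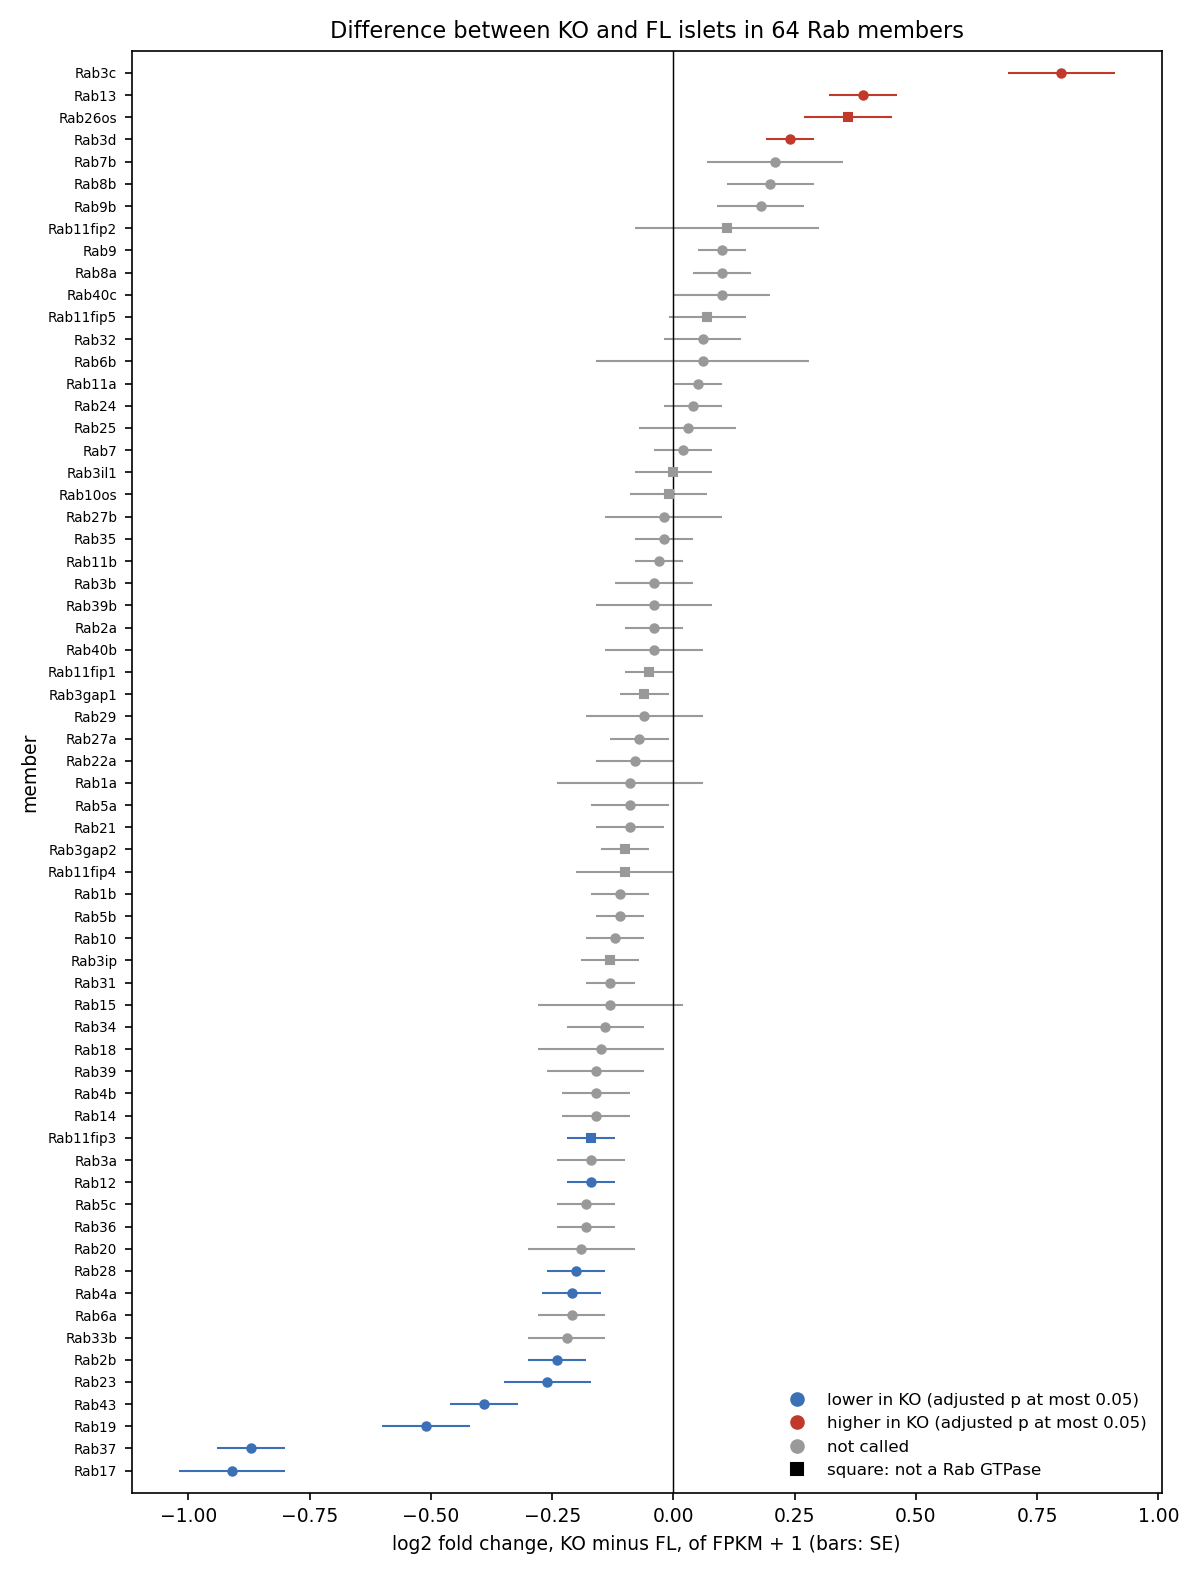
Difference between KO and FL islets for the 64 members, as the log2 fold change of FPKM + 1 (horizontal axis, bars are SE, n = 5 per group), one gene per line in order of size. Blue marks the 10 members called lower in KO, red the 4 called higher, and grey the other 50, and squares mark interacting proteins and antisense RNAs. The grey members lie between −0.22 and 0.21, while Rab17 at −0.91, Rab37 at −0.87 and Rab3c at 0.80 stand at the ends.

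Rab GTPases of secretory vesicles moved in both directions, with Rab37 lower and Rab3c and Rab3d higher among the 7 tested, where 16.5% of all tested genes were lower and 9.05% higher. Rab37, a relative of Rab26 that is found on secretory granules, was at 72.0, 88.1, 79.4, 78.4 and 87.2 FPKM in FL and at 43.1, 44.3, 43.0, 48.5 and 40.0 FPKM in KO replicates 1 to 5. All KO libraries were below all FL libraries, and the KO mean of 43.8 ± 3.08 was 0.540 of the FL mean of 81.0 ± 6.71 FPKM (SD, n = 5). The log2 fold change was −0.87 ± 0.07 (SE), with an adjusted p of 7.11e-06 from limma and an exact permutation p of 0.00794, which is the smallest that 5 against 5 samples can give.

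Rab3c and Rab3d belong to the Rab3 branch of exocytosis, in which Rab3d is best known from granules of exocrine cells. Rab3c was scarce, at 1.19, 1.51, 1.30, 1.02 and 1.51 FPKM in FL, and stood at 3.02, 2.54, 4.11, 2.99 and 2.59 FPKM in KO. Every KO library was above every FL library, and the mean rose from 1.31 ± 0.212 to 3.05 ± 0.631 FPKM (log2 fold change 0.80 ± 0.11, adjusted p = 0.000497 from limma). Rab3d was abundant, at 75.3, 84.4, 78.5, 77.3 and 72.6 FPKM in FL against 89.6, 100, 89.3, 92.3 and 87.1 FPKM in KO. Its groups again did not overlap, and the log2 fold change was 0.24 ± 0.05 (adjusted p = 0.00882 from limma).

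Other secretory Rab GTPases were not called. Rab3a, the main Rab3 of neuroendocrine granules, was at 142, 158, 145, 122 and 142 FPKM in FL against 125, 134, 135, 121 and 116 FPKM in KO (log2 fold change −0.17, adjusted p = 0.106 from limma). Rab3a was called lower without FL replicate 4 (−0.22, adjusted p = 0.0273). Rab27a, which docks granules together with its effectors, was at 112 ± 3.71 FPKM in FL against 108 ± 9.72 FPKM in KO, and Rab3b at 62.1 ± 7.0 and 60.1 ± 4.11 FPKM (SD, n = 5). Rab27b, a close copy of Rab27a, was the member nearest to the level of 1 FPKM from above, at 1.10 and 1.08 FPKM, and Rab26 was nearest from below, at 0.666 and 0.794 FPKM. By mean FPKM the order in FL was Rab3a, Rab27a, Rab37, Rab3d, Rab3b, Rab3c and Rab27b, where Rab37 and Rab3d differed by less than their SD and the libraries of Rab3c and Rab27b overlapped. In KO the order was Rab3a, Rab27a, Rab3d, Rab3b, Rab37, Rab3c and Rab27b, so that Rab37 went from the place above Rab3d to the place below Rab3b.

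**Figure D2:**
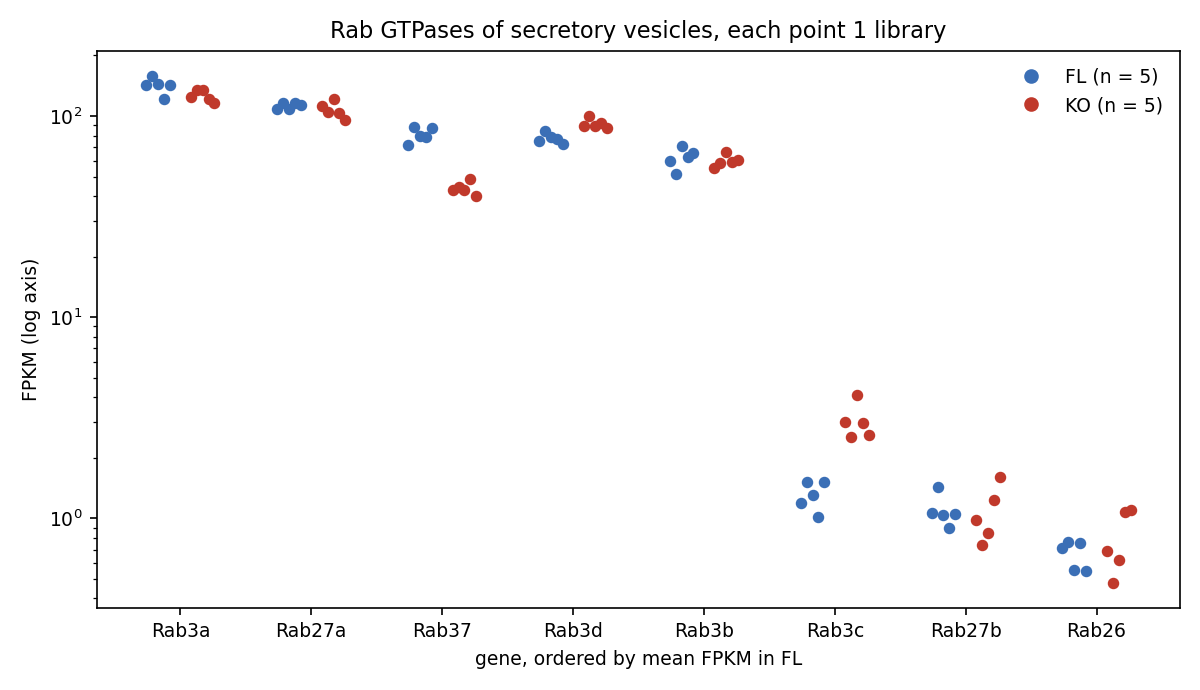
FPKM of 8 Rab GTPases of secretory vesicles on a log axis, ordered by their mean in FL, with each point 1 library of FL (blue, n = 5) or KO (red, n = 5). The points of Rab37 are lower in KO (40.0 to 48.5 against 72.0 to 88.1 FPKM) and those of Rab3c higher (2.54 to 4.11 against 1.02 to 1.51 FPKM), while those of Rab3a, Rab27a, Rab3b, Rab27b and Rab26 overlap.

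Rab GTPases of the ER and Golgi had 3 members lower (Rab19, Rab43 and Rab2b) and 0 higher by limma of 14 tested. These are 21.4% and 0%, beside 16.5% and 9.05% of all tested genes. At an unadjusted p under 0.05 from limma, 6 of the 14 were lower and 0 higher. At that threshold 37.7% of all tested genes passed in either direction, and their share by direction is not given here. Their median log2 fold change was −0.16, beside −0.06 over all tested genes, with 13 of the 14 under 0 (61.9% of all tested genes), or 11 to 12 with other scalings. The median was −0.13 to −0.11 with other scalings and −0.10 without FL replicate 4. Rab43, which acts in transport through the Golgi, was at 22.5, 21, 20.9, 23.6 and 23.8 FPKM in FL against 16.1, 18.2, 14.8, 18.2 and 17.1 FPKM in KO. The groups did not overlap (log2 fold change −0.39 ± 0.07, adjusted p = 0.00167 from limma). On the same strand Rab43 shares 75.4% of its exon bases with the gene model Gm45140, which was at 6.60 and 6.29 FPKM, so that its reads could have been split between them and its values are uncertain. Of the 64 members, 44 shared no stretch of 75 bases, the read length, with another gene, and only Rab43 (74.2%) and Rab4b (52.5%) shared over 10% of their stretches.

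Rab19, a Rab GTPase placed at the Golgi, was at 7.83, 8.37, 6.90, 7.49 and 8.66 FPKM in FL against 5.93, 6.23, 4.72, 4.74 and 4.55 FPKM in KO. Its lowest FL library was above its highest KO library (log2 fold change −0.51 ± 0.09, adjusted p = 0.00220 from limma). Rab2b, at 16.8, 14.7, 18.6, 16.9 and 15.1 FPKM in FL, was at 13.4, 14.1, 13.2, 14.1 and 13.5 FPKM in KO. The KO values of Rab2b lay in a narrow range just under the FL values (log2 fold change −0.24 ± 0.06, adjusted p = 0.0149 from limma). Its near relative Rab2a, which like Rab2b acts between ER and Golgi and was far more abundant, was at 170 ± 8.77 FPKM in FL against 165 ± 12.9 FPKM in KO, with an adjusted p of 0.661 from limma.

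Rab1a and Rab1b drive transport from the ER to the Golgi. Rab1a was at 280, 318, 301, 332 and 286 FPKM in FL against 309, 186, 344, 331 and 280 FPKM in KO (limma, adjusted p = 0.675). KO replicate 2 was the lowest of all libraries, and the other KO libraries spanned 280 to 344 FPKM. Rab1b was at 96.3, 94.0, 105, 104 and 96.3 FPKM in FL against 86.6, 101, 93.2, 86.4 and 92.2 FPKM in KO (log2 fold change −0.11 ± 0.06, adjusted p = 0.179 from limma). The authors, with their own test, reported lower Rab1b expression in KO islets, where the fit here gave the same sign without a call. Rab18, a Rab GTPase of the ER that also coats lipid droplets, was at 81.3, 85.2, 85.1, 105 and 81.4 FPKM in FL against 87.4, 55.6, 91.7, 86.6 and 76.3 FPKM in KO. FL and KO values of Rab18 overlapped (log2 fold change −0.15 ± 0.13, adjusted p = 0.426 from limma), and KO replicate 2 was again the lowest library. Without it the log2 fold change of Rab18 was −0.03, and it was −0.09 without FL replicate 4.

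Of 9 Rab GTPases of early endosomes, 1 fell (11.1%, beside 16.5% of all tested genes) and 8 had a log2 fold change below 0, as 61.9% of all tested genes had. The member that fell was Rab17, an endosomal Rab GTPase of epithelial cells, at 2.34, 2.54, 2.0, 2.72 and 3.49 FPKM in FL against 0.841, 0.847, 0.789, 0.942 and 1.11 FPKM in KO. The KO mean was 0.346 of the FL mean, the lowest ratio among the called members, and the groups did not overlap (log2 fold change −0.91 ± 0.11, adjusted p = 0.000176 from limma). Having passed the level only through FL, Rab17 was also called with no filter. Rab5a, Rab5b and Rab5c, which direct fusion of early endosomes, had log2 fold changes of −0.09, −0.11 and −0.18 and were not called, though Rab5c was called lower without KO replicate 2 (−0.22, adjusted p = 0.0219 from limma). Of the 6 Rab GTPases of late endosomes and lysosomes none was called by limma (0 lower and 0 higher, beside 16.5% and 9.05% of all tested genes, and 0 at an unadjusted p under 0.05), and Rab7, which directs fusion with lysosomes, was at 315 ± 20.3 FPKM in FL against 320 ± 24.8 FPKM in KO. Rab9b, a late endosomal Rab GTPase, was called higher without KO replicate 2 (log2 fold change 0.25, adjusted p = 0.0448 from limma).

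Of 12 Rab GTPases of recycling endosomes, trans-Golgi and plasma membrane, Rab13 rose and Rab4a fell. Each is 8.33% of the group, beside 9.05% higher and 16.5% lower of all tested genes. Rab14 was called lower without FL replicate 2 (log2 fold change −0.20, adjusted p = 0.0414 from limma). Rab8b was called higher without FL replicate 4 (0.26, adjusted p = 0.0477 from limma) or KO replicate 2 (0.26, adjusted p = 0.0389). Rab13, which carries cargo to cell junctions, was at 5.72, 6.15, 6.35, 5.18 and 6.09 FPKM in FL against 8.70, 9.08, 7.44, 7.50 and 7.39 FPKM in KO. Every KO library was above every FL library (log2 fold change 0.39 ± 0.07, adjusted p = 0.00313 from limma). Rab4a, which returns cargo quickly from early endosomes, fell from 27.1 ± 1.6 to 23.3 ± 1.74 FPKM (adjusted p = 0.0263 from limma), with 1 KO library inside the range of FL. Rab11a, the Rab GTPase of recycling endosomes, was the most abundant member and was at 338 ± 16.0 FPKM in FL against 350 ± 15.4 FPKM in KO (adjusted p = 0.502 from limma). Rab11a, Rab7, Rab1a, Rab2a and Rab3a together held 37.8% to 41.2% of the summed FPKM of the members in a library, and none of these 5 was called. That sum reached from 3094 to 3331 FPKM in FL against 2972 to 3239 FPKM in KO.

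Rab GTPases of cilia and other places had 3 of 5 lower, beside 16.5% of all tested genes, and 0 of 5 after rescaling to TPM or without FL replicate 4 or KO replicate 5. Rab28, known from cilia, fell from 67.9 ± 2.57 to 59.0 ± 4.57 FPKM (adjusted p = 0.0237 from limma) and Rab12, which sorts recycling receptors to lysosomes, from 49.8 ± 2.48 to 44.2 ± 1.75 FPKM (adjusted p = 0.0246). Rab12 libraries did not overlap, though FL replicate 2 and KO replicate 3 are equal as printed: 50.6, 46.8, 48.7, 53.5 and 49.5 FPKM in FL stood against 43.9, 45.1, 46.8, 42.8 and 42.5 FPKM in KO. Rab23, a ciliary Rab GTPase that restrains Hedgehog signalling, fell from 16.8 ± 0.749 to 13.9 ± 2.05 FPKM (adjusted p = 0.0463 from limma), with overlapping groups. Among the 9 interacting proteins only Rab11fip3, an effector of Rab11 in cell division, was called (11.1%, beside 25.5% of all tested genes), at 12.1 ± 0.453 and 10.7 ± 0.676 FPKM (adjusted p = 0.0328 from limma). Leaving out 1 library left these small falls negative, but each of them lost its call in some of these fits. The log2 fold changes were −0.24 to −0.18 for Rab28, −0.19 to −0.14 for Rab12, −0.24 to −0.18 for Rab4a, −0.33 to −0.20 for Rab23 and −0.20 to −0.14 for Rab11fip3. Leaving out 1 library ended the call of Rab28 for FL replicate 4 or KO replicates 1, 4 or 5, of Rab12 for the same libraries or FL replicate 1, and of Rab4a for FL replicates 3 or 4 or KO replicates 4 or 5. It also ended the call of Rab23 for each FL replicate and KO replicates 2, 3 and 5. For Rab11fip3 the call ended for FL replicates 1, 2, 3 and 5 and KO replicates 1, 3 and 4. Adjusted p from limma was from 0.0505 to 0.0979 over these fits. Rab3ip, another of the interacting proteins, was called lower without KO replicate 2 (log2 fold change −0.18, adjusted p = 0.0295 from limma).

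Rab26os, an RNA antisense to Rab26 (chr17:24528248-24528744), was at 21.9, 20.8, 24.4, 26.0 and 19.3 FPKM in FL against 29.1, 33.1, 25.6, 27.8 and 29.5 FPKM in KO. It rose with 1 FL library inside the range of KO (log2 fold change 0.36 ± 0.09, adjusted p = 0.0126 from limma). Rab26 itself was below 1 FPKM in both group means. Whether the authors' counting used strand is not given in the sources used here.

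**Figure D3:**
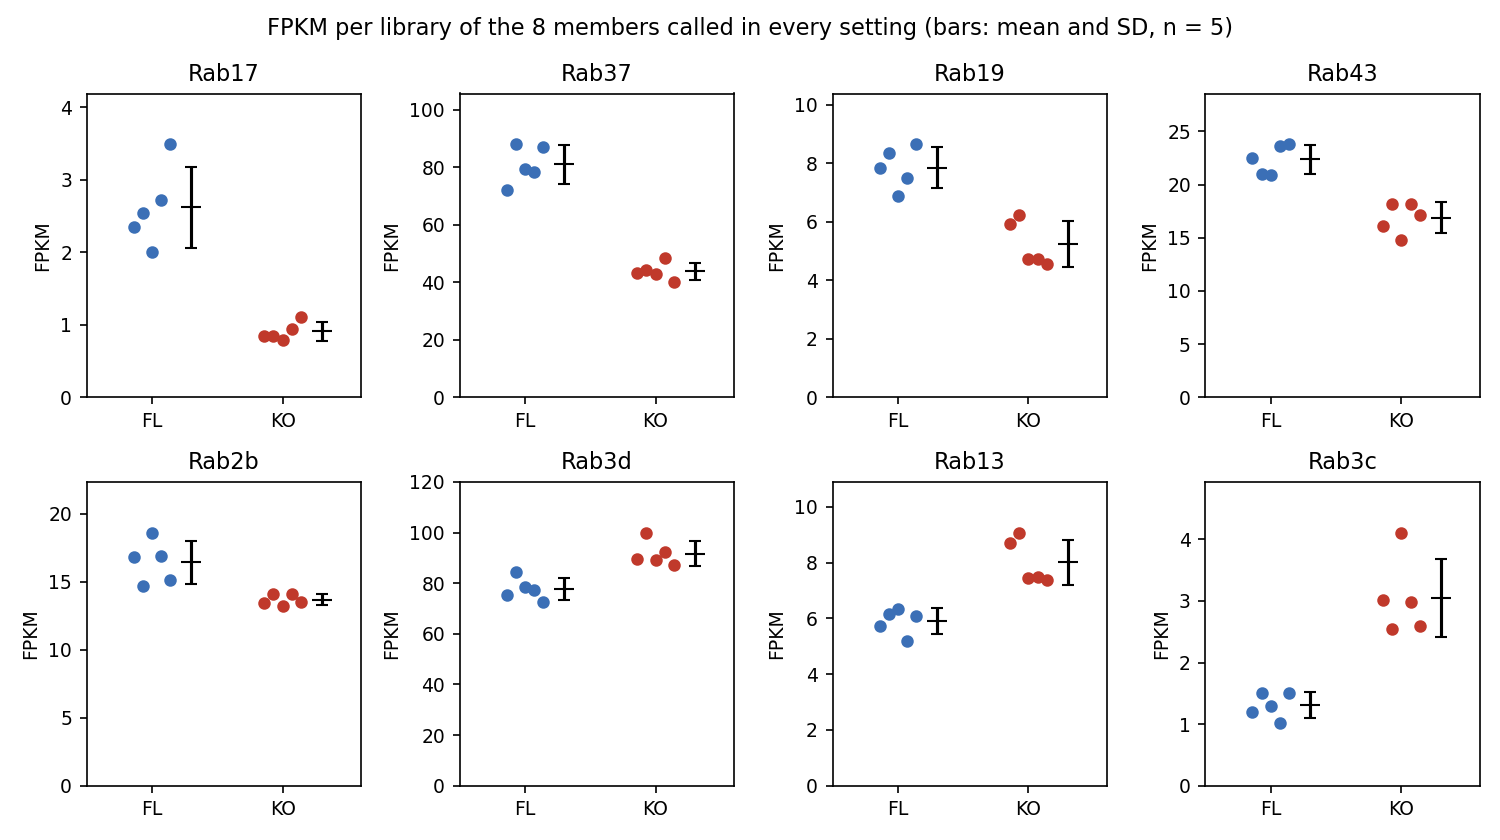
FPKM per library (vertical axes, each starting at 0) of the 8 members called in every alternative in which they were tested, with FL in blue, KO in red and bars for mean and SD (n = 5). In all 8 panels the FL and KO points do not overlap, with Rab17, Rab37, Rab19, Rab43 and Rab2b lower in KO and Rab3d, Rab13 and Rab3c higher.

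Lists of genes of the Rab cycle were also counted, and 2 exchange factors, 2 GTPase-activating proteins and 5 effectors in them are members counted above. Of 47 exchange factors, 8 fell and 2 rose, which is 17% and 4.26% of the list beside 16.5% and 9.05% of all tested genes. The number lower was 5 with median-ratio scaling, with TPM, and without FL replicate 3 or KO replicates 1, 4 or 5. St5, which encodes an exchange factor of Rab13, fell from 38.0 ± 2.82 to 25.8 ± 2.70 FPKM (log2 fold change −0.54), and the DENN domain protein gene Sbf1 fell from 44.4 ± 3.70 to 35.6 ± 3.17 FPKM. The TRAPP complex genes Trappc6a and Trappc11, whose complex activates Rab1, had log2 fold changes of −0.26 and −0.24. Rin2, an exchange factor of Rab5, and Dennd2d rose, with log2 fold changes of 0.32 and 0.24. Rin2 lost its call without FL replicates 4 or 5, or KO replicates 1, 2, 4 or 5 (adjusted p up to 0.0735).

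Of 40 tested genes of GTPase-activating proteins, which are 39 symbols because Sgsm3 has 2 identifiers, 3 fell and 8 rose, 7.5% and 20% of the list beside 16.5% and 9.05% of all tested genes, and 1 to 2 fell and 8 rose with other scalings. The number lower was 5 without FL replicate 1 and 1 without KO replicate 1. The number higher was 6 without any 1 of FL replicates 1, 2, 3 and 5 or KO replicates 1 and 4. It was 7 without KO replicate 2 and 9 without KO replicate 5. The log2 fold change was 0.76 for Tbc1d4, which acts on Rab GTPases of glucose transporter vesicles and rose from 3.30 ± 0.320 to 6.28 ± 0.835 FPKM. Tbc1d9b rose from 65.4 ± 3.68 to 84.6 ± 3.13 FPKM, and Tbc1d9, Tbc1d15 and Tbc1d13 rose with log2 fold changes of 0.28, 0.26 and 0.25; the call of Tbc1d15 was lost without FL replicates 3 or 5 or KO replicates 1 or 4 (adjusted p up to 0.0583). Sgsm1 fell, with −0.24. The median of the list was −0.06, as for all tested genes.

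Of 3 kinases and phosphatases of Rab proteins, Ppm1h, a phosphatase of Rab proteins, rose from 19.4 ± 2.0 to 25.3 ± 2.90 FPKM. Of 5 Rab-like genes, 0 were called by limma, and 0 at an unadjusted p under 0.05. These are 1 of 3 and 0 of 5 called, beside 25.5% of all tested genes.

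Of 50 effectors 3 fell (Mlph, Sytl4 and the member Rab11fip3) and 3 rose, 6.0% each way, under the 16.5% and 9.05% of all tested genes. The counts were 2 lower and 5 higher with median-ratio scaling or quantile normalization and 2 and 4 with TPM, and 5 were lower without KO replicate 2. Sytl4, which encodes granuphilin, the docking effector of Rab27a on insulin granules, was at 230, 275, 247, 286 and 273 FPKM in FL against 139, 180, 184, 127 and 132 FPKM in KO. Mlph, which encodes melanophilin, the link of Rab27a to myosin Va, was at 4.6, 5.12, 4.25, 4.06 and 3.77 FPKM in FL against 0.935, 1.19, 1.06, 1.46 and 1.44 FPKM in KO. Both fell without overlap, with log2 fold changes of −0.80 and −1.27 (adjusted p = 0.000597 and 5.25e-06 from limma).

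The effectors that rose were Rph3a, Sytl3 and Myo5a. Rph3a, the gene of rabphilin, which binds Rab3 and Rab27, was at 0.123, 0.0281, 0.0927, 0.0618 and 0.0644 FPKM in FL and at 4.74, 5.14, 6.47, 3.06 and 3.48 FPKM in KO. Rph3a passed the level of 1 FPKM only through KO, and it was also called with no filter. Its log2 fold change of 2.34 on log2(FPKM + 1) understates the ratio of such a low gene. Sytl3, a relative of Sytl4, rose from 1.42 ± 0.353 to 5.11 ± 1.15 FPKM and Myo5a, the gene of myosin Va, from 21.7 ± 1.37 to 30.6 ± 2.5 FPKM. None of these 3 had overlapping groups. Rab27a, with which Sytl4 and Mlph work, had means of 112 and 108 FPKM (adjusted p = 0.456 from limma).

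**Figure D4:**
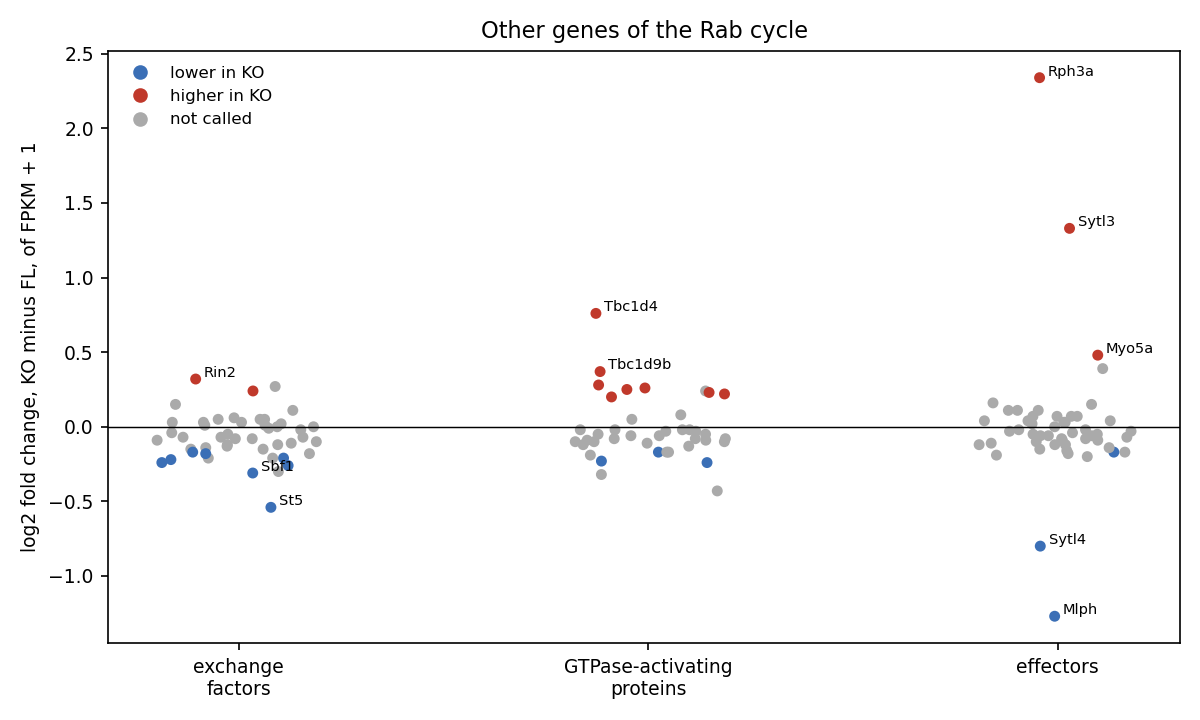
Log2 fold change of FPKM + 1 between KO and FL (vertical axis) for tested exchange factors, GTPase-activating proteins and effectors, each point 1 gene, with names for called genes of at least 0.3 in size. Blue marks genes lower in KO, red genes higher and grey genes not called. The effectors Rph3a (2.34), Sytl3 (1.33), Mlph (−1.27) and Sytl4 (−0.80) lie farthest from 0.

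The promoters of Rab17 and Rab3c are printed as those of the member with the lowest and the member with the highest log2 fold change, from 250 bases before to 50 after the start (RefSeq, GRCm38.p6, read on the strand of the gene). The motif TGACG, known from cyclic AMP response elements, the motif CCAAT, bound by NF-Y, and the motif TTCNNNGAA, bound by STAT proteins, were searched on both strands, and capitals mark a match, which is a description of letters and not a site.
Rab17: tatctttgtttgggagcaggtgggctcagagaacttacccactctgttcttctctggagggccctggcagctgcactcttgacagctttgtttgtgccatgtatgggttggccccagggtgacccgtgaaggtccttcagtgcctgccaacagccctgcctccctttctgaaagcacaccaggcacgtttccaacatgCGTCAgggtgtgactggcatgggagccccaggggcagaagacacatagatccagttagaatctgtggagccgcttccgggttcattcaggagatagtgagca
Rab3c: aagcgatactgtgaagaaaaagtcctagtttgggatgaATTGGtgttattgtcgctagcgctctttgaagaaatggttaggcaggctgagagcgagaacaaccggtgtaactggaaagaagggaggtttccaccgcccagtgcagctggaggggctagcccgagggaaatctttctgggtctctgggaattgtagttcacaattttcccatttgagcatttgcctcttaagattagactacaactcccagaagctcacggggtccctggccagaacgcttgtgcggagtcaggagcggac

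In the Rab17 promoter (chr1:90967618-90967917) the match is TGACG, written CGTCA because it lies on the other strand, and in the Rab3c promoter (chr13:110280157-110280456) it is CCAAT, likewise written ATTGG. Of 73 promoters of 55 members in the RefSeq table, 45.2% held TGACG, beside 20.8% of all 32851 promoters of that length. CCAAT was in 39.7% beside 37.4%, and TTCNNNGAA in 8.22% beside 8.30%. Base composition was not matched in these shares.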

How the data were processed

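Islet polyA RNA of 5 FL and 5 KO mice was sequenced as stranded single-end reads, 1 library per sample. The authors deposited 1 table of FPKM for 47340 genes; the submitters' processing notes name STAR 2.5.2a, Cuffnorm 2.2.1 and the builds mm10 and GRCm38, without roles. The reads were not processed again and depth is unknown. No 2 libraries were identical.

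Groups came from the sample titles. The contrast of KO with FL was fitted in R 4.3.3 by limma 3.58.1 with a trend, on log2(FPKM + 1), for the 13065 genes whose mean reached 1 FPKM in either group, without covariates. P-values were adjusted over all of these (Benjamini-Hochberg), and an adjusted p up to 0.05 was a call. Each member also had an exact permutation test, two-sided, over 252 splits. Fold changes on log2(FPKM + 1) understate changes of low genes. P-values measure the spread between these samples.

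The members and lists were chosen with earlier results of these data known. Named with values were the called members (per library where FL and KO did not overlap or the log2 fold change was at least 0.3 in size), the 5 most abundant members, the secretory group, Rab1b and Rab18, up to 6 called genes of each other list, and Fitm2; other names were chosen after their values were seen. The list of prenylation and delivery genes is not reported here. Of the 72 gene identifiers, 72 are in GENCODE M21 (49 with the same version), which gave coordinates and coding ends. Alternatives were pseudocounts of 0.1 and 0.01, no filter or at least 5 FPKM, 3 scalings, limma without trend, with sample weights or robust, the replicate number as a block, and leaving out each library. The fit was tested on simulated data. Summaries used Python 3.11.15 with pandas 2.3.3, numpy 2.4.6 and matplotlib 3.10.9.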

Additional observations from a re-analysis of the deposited data

Results flagged for a closer look

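In 8 of 130 groups of 5 libraries, examined for the 64 members and Fitm2, 1 library stood apart from the other 4 by more than 0.71 of the group's range. Chance flags about 1 in 20 groups, or 6.5 of 130, but these groups share the same libraries and are not independent. Over the 64 members, FL replicate 4 was the highest FL library for 25 and the lowest for 13. FL replicate 4 was the highest library for Rab18 (105 FPKM, nearest 85.2), Rab33b (42.1, nearest 34.5), Rab8b (9.28, nearest 7.48), Rab39 (3.26, nearest 2.45) and Rab32 (2.13, nearest 1.67). FL replicate 3 was the highest for Rab3il1 (1.43 FPKM, nearest 1.28), KO replicate 2 the highest for Rab35 (31.4 FPKM, nearest 27.2) and KO replicate 3 the lowest for Rab32 (1.56 FPKM, nearest 1.83). With all libraries none of these genes was called. Rab8b was called higher in KO without FL replicate 4 (log2 fold change 0.26, adjusted p = 0.0477 from limma) and without KO replicate 2 (0.26, adjusted p = 0.0389).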

How the results depend on the processing

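Of the 14 called members, 8 (Rab37, Rab17, Rab3c, Rab43, Rab19, Rab13, Rab3d and Rab2b) were called in all of the 21 alternatives in which they were tested. The count of lower members was 5 after rescaling to TPM and 6 to 12 when a library was left out (6 without KO replicate 4 or KO replicate 5), and the count of higher members was 3 to 6 over the alternatives. For fits with a library left out, the share of all tested genes called is not given here, which leaves these counts without a background. Over all tested genes, the lower and higher calls were 2150 and 1183, against 1530 and 1614 with median-ratio scaling, 1708 and 1494 with quantile normalization and 1536 and 1470 with TPM, and these scalings moved the median log2 fold change by 0.04 to 0.05. With the replicate block, 5 members were lower and 3 higher. Of the exchange factors 5 were then lower and 1 higher, and of the GTPase-activating proteins 2 and 7. The share of all tested genes called with the block is not given here. The counts with the block are therefore not to be set beside the 25.5% of the main fit. Samples with the same number did not deviate together over all tested genes (r from −0.102 to 0.003, and 0 of 10 libraries correlated best with its own number). A pairing that leaves no such shared deviation would not be seen this way, so whether the numbers pair the samples is unknown. Fold changes under each alternative were tabulated for the members called, the 5 most abundant, the secretory group, Rab1b and Rab18, and among these only members not called changed sign. Over all 64 members the number below 0 was 46, and 36 with median-ratio scaling, 38 with quantile normalization and 40 with TPM. With median-ratio scaling, Rab27b was at 0.01, Rab2a at 0.02 and Rab3b at 0.02. With quantile normalization, Rab27a was at 0.00, Rab2a at 0.01 and Rab3b at 0.02. With TPM, Rab2a was at 0.00 and Rab3b at 0.00. With sample weights, Rab1a was at 0.01 and Rab7 at −0.03. With a library left out, Rab1a ranged from −0.16 to 0.06, Rab27b ranged from −0.11 to 0.04, Rab2a ranged from −0.07 to 0.00, Rab3b ranged from −0.10 to 0.01 and Rab7 ranged from −0.03 to 0.05. Sample weights gave 14 lower and 6 higher members, and among these Rab1b (adjusted p = 0.0456 from limma), Rab3a (0.0224), Rab5c (0.0106) and Rab9b (0.0294). With these weights 12 exchange factors and 8 GTPase-activating proteins were lower, beside 8 and 3 without them. The numbers higher were 2 and 8 with and without the weights. The share of all tested genes called with weights is not given here. The counts with weights are therefore not to be set beside the 25.5% of the main fit. The cause of these changes was not tested. Since the number of reads is unknown, what depth limits for low members such as Rab3c and Rab17 could not be computed.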
